A study of Mus musculus with 8 samples.

Results

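Secreted modulators of WNT signalling are described here in mouse uterine stromal cells as 10 genes, matched by symbol among the 23420 genes of the count tables. All 10 symbols were found. They are the agonists Rspo1 and Rspo3 and the 8 antagonists Sfrp1, Sfrp2, Sfrp4, Dkk1, Dkk2, Dkk3, Notum and Wif1. RNA came from cells labelled as uterine stroma of females at day 3, in 4 libraries of genotype Erbb3f/f and 4 of genotype Erbb3d/d. In the usual notation f stands for a floxed Erbb3 allele and d for the recombined, deleted one, so the control group also carries a modified allele. No Cre line, strain or age is named in the labels, nor the event that starts the count of days, nor whether each library is a separate animal, so p-values measure the spread between these libraries only. Where 4 values are given for a genotype they are in the order of replicates 1 to 4.

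WNT ligands bind frizzled receptors together with LRP5 or LRP6 and stabilise beta-catenin. R-spondins are secreted proteins that engage LGR receptors and the membrane ubiquitin ligases ZNRF3 and RNF43, which otherwise remove frizzleds from the cell surface, and so raise the response to WNT. SFRPs and WIF1 bind WNT ligands outside the cell, DKK1 and DKK2 bind LRP5 and LRP6, and NOTUM is an enzyme that strips the lipid from WNT. DKK3 is a divergent DKK relative whose action on WNT is less clear. In the mouse uterus, WNT signals pass between stroma and epithelium and take part in gland formation and in the decidual response.

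The promoters of 5 members matched RefSeq entries (GRCm38.p6), and those of 3 are shown because they belong to the member with the largest fitted difference between the genotypes (Wif1), the most abundant member (Sfrp2) and the more abundant of the DKK genes that bind LRP receptors (Dkk2). Each run ends just before the first annotated base of the gene and reads 5′ to 3′ on the gene's strand, with capitals for a TATA box.
Wif1, chr10:121033754-121033959, plus strand: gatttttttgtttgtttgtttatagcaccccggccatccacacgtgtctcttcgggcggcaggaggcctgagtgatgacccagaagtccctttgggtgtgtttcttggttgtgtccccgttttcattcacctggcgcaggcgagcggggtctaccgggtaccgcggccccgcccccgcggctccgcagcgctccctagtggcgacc
Sfrp2, chr3:83766071-83766320, plus strand: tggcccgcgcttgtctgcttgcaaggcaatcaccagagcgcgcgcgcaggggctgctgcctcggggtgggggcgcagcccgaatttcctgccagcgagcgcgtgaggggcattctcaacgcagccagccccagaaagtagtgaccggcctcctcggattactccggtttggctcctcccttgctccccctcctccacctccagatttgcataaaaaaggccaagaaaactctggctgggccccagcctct
Dkk2, chr3:132085042-132085291, plus strand: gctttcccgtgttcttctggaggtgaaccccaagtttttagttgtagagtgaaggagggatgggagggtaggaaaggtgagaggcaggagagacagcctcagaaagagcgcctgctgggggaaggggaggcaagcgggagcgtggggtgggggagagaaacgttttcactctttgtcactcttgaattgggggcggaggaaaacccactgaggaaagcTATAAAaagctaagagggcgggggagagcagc
The windows of 250 bases before the RefSeq start were searched for the TATA box TATAAA on the gene's strand and for the TCF/LEF core CTTTGA on both strands (TCAAAG on the other), motifs that do not overlap each other. TATAAA was found in 7.59% of the 32851 promoters in the table and CTTTGA in 13.8%. Dkk2 had TATAAA starting 32 bases before the start. Dkk1 had TATAAA and also the TCF/LEF core at 117 and, on the other strand, at 174 bases before the start. The windows of Rspo1, Sfrp2 and Wif1 held neither run of letters.

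Reads assigned to genes numbered 8578575 to 12854367 per library. Normalised read counts are given as CPM, read counts over a library size scaled with TMM factors. Stromal markers summed to 12258 to 14832 CPM in Erbb3f/f and 10252 to 13549 CPM in Erbb3d/d. Of these markers 9 of 12 were fitted lower in Erbb3d/d, 5 of them at an unadjusted p under 0.05 (edgeR) and 2 called by DESeq2 (Pdgfra and Vim). Among all 14598 tested genes 7598 were fitted lower, 4.97% at that p, and DESeq2 called 0.398% of the genes it tested lower. Epithelial markers summed to 953 to 2393 CPM per library, and no counted gene of the lists for epithelium, smooth muscle, endothelium, pericytes, mesothelium and immune cells was at 0 in any library. Erbb3 itself was at 7.40, 10.6, 8.25 and 12.3 CPM in the libraries labelled Erbb3f/f and at 7.37, 14.3, 17.7 and 16.2 CPM in those labelled Erbb3d/d. Erbb3 was thus not lower on average under the deleted label, so genotype names here stand for libraries so labelled, although a count over the whole gene need not show the loss of single exons. Erbb3d/d replicate 2 was nearer to the Erbb3f/f libraries than to the other Erbb3d/d libraries. The chi-square per degree of freedom between its counts and those of another library was 10.8 to 14.3 for Erbb3f/f libraries and 19.2 to 35.2 for Erbb3d/d libraries. Pairs among Erbb3d/d replicates 1, 3 and 4 were at 20.2 to 26.7, so these were not close to each other either. This measure was not adjusted for depth, and Erbb3d/d replicate 2 had the fewest reads in genes, 8578575. With all 8 libraries edgeR called 0 of 14598 genes, where 11.6% had an unadjusted p under 0.05. Without Erbb3d/d replicate 2 it called 1.75% of genes (0.968% higher and 0.785% lower in Erbb3d/d).

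The members covered a wide range of transcript levels. Per kilobase of merged exon and averaged over all 8 libraries, Sfrp2 stood highest at 272 CPM per kb, followed by Dkk3 at 69.996 CPM per kb. Both steps, Sfrp2 over Dkk3 and Dkk3 over the next gene, held in 8 of 8 libraries. Rspo1 (19.99 CPM per kb), Rspo3 (14.5 CPM per kb), Sfrp1 (12.4 CPM per kb), Dkk2 (11.7 CPM per kb), Sfrp4 (9.94 CPM per kb) and Notum (8.45 CPM per kb) formed a middle group in which each neighbouring pair kept its order in only 4 to 6 of 8 libraries. In this group Rspo3 lay below Sfrp1 in 4 of 4 Erbb3f/f libraries and above it in 4 of 4 Erbb3d/d libraries. Wif1 was low, at 1.87 CPM per kb, and Dkk1 was almost absent, with 8 reads in all libraries together.

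**Figure D1:**
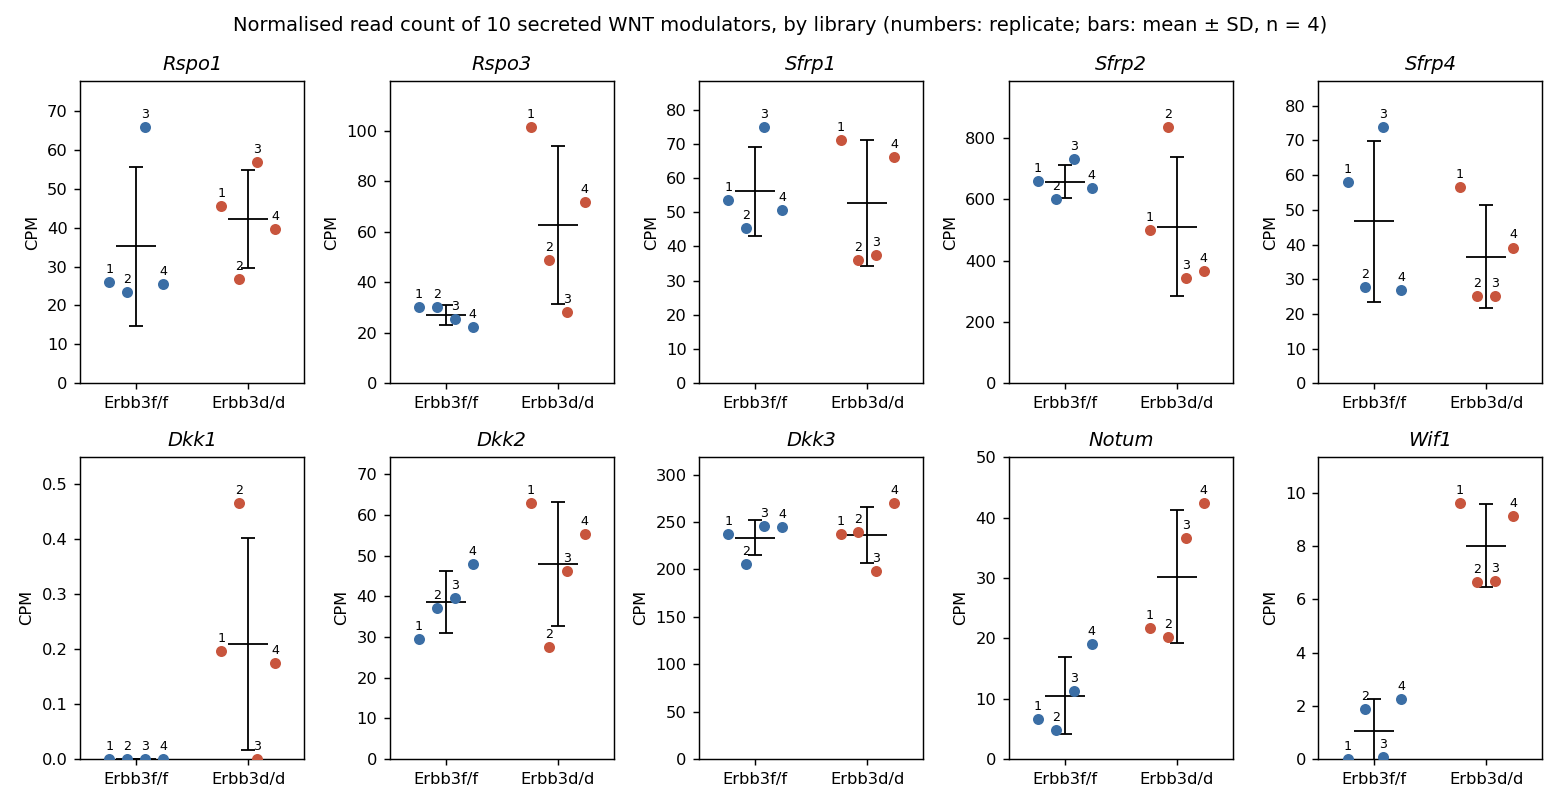
CPM (vertical axes, each starting at 0) of the 10 secreted WNT modulators in the 4 Erbb3f/f libraries (blue) and the 4 Erbb3d/d libraries (red); numbers give the replicate, and black bars the mean ± SD. Notum and Wif1 are the tested genes whose genotypes do not overlap, with Wif1 at 0 to 2.26 CPM in Erbb3f/f and 6.65 to 9.63 CPM in Erbb3d/d.

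Between the genotypes, 9 of the 10 members passed the filter on low counts and were tested, and edgeR's quasi-likelihood test called 0 of them at an adjusted p of 0.05, as it did for all genes (0%). At an unadjusted p under 0.05, 3 members were higher in Erbb3d/d (Rspo3, Notum and Wif1) and 0 were lower, where 6.64% of all tested genes were higher and 4.97% lower at that p. DESeq2 called 2 members higher, Rspo3 and Notum, and 0 lower, against 1.43% higher and 0.398% lower (1.82% in all) of the genes it tested. The genotypes did not overlap for 2 of the 9 members, Notum and Wif1, with Erbb3d/d above in both. Among all tested genes the genotypes did not overlap for 5.04%, with Erbb3d/d wholly above for 2.56% and wholly below for 2.48%. Wif1 had more than 1 read in only 2 of 4 Erbb3f/f libraries and passed the filter through Erbb3d/d, the group where it is high, so its place in these counts is no support for them, and without it they are 2 higher at the unadjusted p and 1 not overlapping. With Wif1 included, the median log2 fold change was 0.26 over the 9 members and -0.01 over all tested genes.

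Rspo3 was the agonist with the larger difference. It spans positions 29452416 to 29535867 of chromosome 10 (minus strand; all positions are on GRCm38 from GENCODE vM21), and has 5 merged exons. Rspo3 was read at 30.3, 30.2, 25.4 and 22.4 CPM in Erbb3f/f. In Erbb3d/d it was read at 101, 48.9, 28.4 and 71.6 CPM. The Erbb3f/f libraries were close together, while the Erbb3d/d libraries were spread over a wide range, with replicate 3 at the Erbb3f/f level and the other 3 above every control. The log2 fold change was 1.21 (SE 0.34), or 2.31-fold, at adjusted p = 0.286 (edgeR) and adjusted p = 0.0139 (DESeq2). An exact permutation test (two-sided, n = 4 and 4) gave p = 0.0857. Smooth muscle markers moved with it: 9 of 10 were fitted higher in Erbb3d/d, where 7000 of all 14598 tested genes were. Their summed level was 1825 to 3024 CPM in Erbb3f/f and 2924 to 6102 CPM in Erbb3d/d. The 3 libraries with the most Rspo3, Erbb3d/d replicates 1, 4 and 2, were also the 3 with the highest smooth muscle sum, in the same order. With the mean of these markers as a covariate the log2 fold change of Rspo3 was 0.31 (SE 0.32; edgeR adjusted p = 0.788). In bulk RNA, a different number of cells of a type and a different amount of RNA per cell cannot be told apart.

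Rspo1, the other agonist, is at positions 124986430 to 125009099 of chromosome 4 (plus strand). It was present at 25.9, 23.6, 65.8 and 25.6 CPM in Erbb3f/f. In Erbb3d/d it was present at 45.6, 26.7, 57.0 and 39.7 CPM. The genotypes overlapped throughout, and the highest value of all belonged to Erbb3f/f replicate 3. The log2 fold change was 0.26 (SE 0.36; edgeR adjusted p = 0.818). Erbb3f/f replicate 3 and Erbb3d/d replicate 3, the libraries with the most Rspo1, also had the highest sums of the 6 mesothelial markers, 254 and 195 CPM, against 43.0 to 101 CPM in the other 6 libraries. None of the 6 mesothelial markers was fitted higher in Erbb3d/d. With their mean as a covariate, chosen after seeing the data, the log2 fold change of Rspo1 was 0.55 (SE 0.16; edgeR adjusted p = 0.235), and without Erbb3f/f replicate 3 it was 0.76 (SE 0.22, adjusted p = 0.394).

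**Figure D2:**
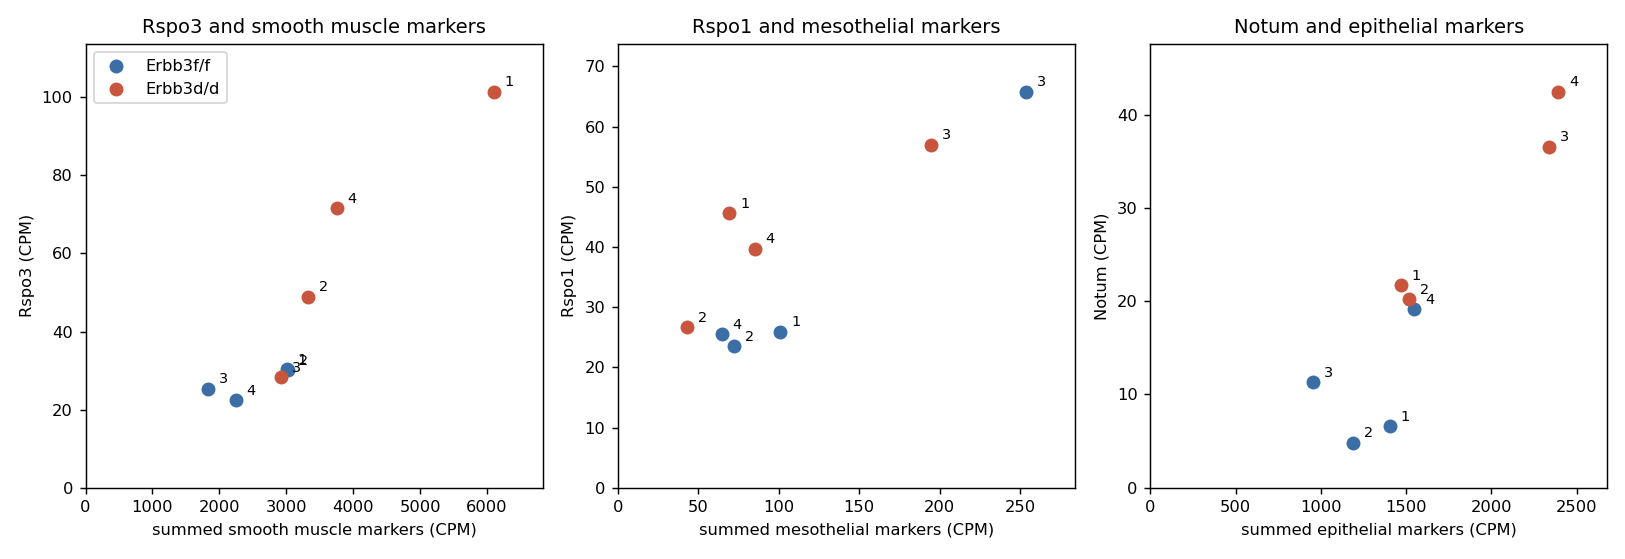
CPM of Rspo3, Rspo1 and Notum (vertical axes) against the summed CPM of smooth muscle, mesothelial and epithelial markers (horizontal axes), 1 point per library, Erbb3f/f in blue and Erbb3d/d in red, numbers giving the replicate. Erbb3d/d replicate 1 is highest for both Rspo3 (101 CPM) and smooth muscle markers (6102 CPM), and Erbb3f/f replicate 3 for both Rspo1 (65.8 CPM) and mesothelial markers (254 CPM).

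Among the antagonists, Notum and Wif1 differed most. Notum, at positions 120653788 to 120661175 of chromosome 11 (minus strand), encodes the WNT deacylase and is itself induced by WNT signalling in several tissues. It had 6.62, 4.82, 11.3 and 19.1 CPM in Erbb3f/f, from 68, 46, 144 and 169 reads. In Erbb3d/d it had 21.7, 20.2, 36.6 and 42.5 CPM, from 221, 173, 464 and 484 reads. Every Erbb3d/d library exceeded every Erbb3f/f library, but the gap between Erbb3f/f replicate 4 and Erbb3d/d replicate 2 was small beside the range within either genotype. The log2 fold change was 1.54 (SE 0.42), or 2.90-fold, at adjusted p = 0.284 (edgeR) and adjusted p = 0.0115 (DESeq2). The exact permutation test gave p = 0.0286, the smallest that 4 against 4 libraries can give. Epithelial markers were also higher: 11 of 13 were fitted higher in Erbb3d/d, where 7000 of all 14598 tested genes were. Their sum was 953 to 1549 CPM in Erbb3f/f and 1468 to 2393 CPM in Erbb3d/d. It was highest in Erbb3d/d replicates 3 and 4, the libraries with the most Notum. Within Erbb3f/f the order differed: replicate 3 had the lowest sum, 953 CPM, with 11.3 CPM of Notum, and replicate 1 had 1403 CPM with 6.62 CPM of Notum. With the epithelial mean as a covariate its log2 fold change was 0.82 (SE 0.54; edgeR adjusted p = 0.9998). Adjusting for the smooth muscle mean instead raised the Notum value to 2.24 (SE 0.59; edgeR adjusted p = 0.430). Notum shares exonic sequence with Notumos and Myadml2os on the other strand in GENCODE vM21, and as the libraries are non-directional and neither is in the count tables, their reads cannot be told apart from those of Notum.

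Wif1, at positions 121033960 to 121100650 of chromosome 10 (plus strand), encodes a secreted protein that binds WNT ligands. Reads numbered 0, 18, 1 and 20 in Erbb3f/f against 98, 57, 85 and 104 in Erbb3d/d. In CPM this was 0, 1.88, 0.0786 and 2.26 against 9.63, 6.65, 6.70 and 9.12. The Erbb3d/d libraries lay close together and well above all controls, and the controls fell into a pair at or near 0 and a pair near 2 CPM. The log2 fold change was 2.98 (SE 0.81), or 7.90-fold, at adjusted p = 0.284 (edgeR) and adjusted p = 0.187 (DESeq2), and the exact permutation test gave p = 0.0286. The fold rests on few control reads. With the epithelial or the smooth muscle mean as a covariate the log2 value was 2.52 or 2.53, with an SE of 1.06 or 1.16 and an edgeR adjusted p of 0.9998 or 0.554.

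The SFRP genes showed no difference that passed a test with all libraries. Sfrp2, at positions 83766321 to 83774316 of chromosome 3 (plus strand), encodes a WNT-binding protein with a frizzled-like domain. It had 660.1, 603, 731 and 639 CPM in Erbb3f/f. In Erbb3d/d it had 499, 836, 343 and 367 CPM. Erbb3d/d replicates 1, 3 and 4 lay below every control and replicate 2 lay above every control. The log2 fold change was -0.37 (SE 0.26; edgeR adjusted p = 0.607). Without Erbb3d/d replicate 2 it was -0.70 (SE 0.14; edgeR adjusted p = 0.0395), in a fit that called 0.785% of all genes lower. With the epithelial mean as a covariate its sign turned, to 0.12 (SE 0.27). With the smooth muscle mean the value was -0.25 (SE 0.38). The stromal markers Hoxa10 and Hoxa11 had the same libraries low: Hoxa10 was at 974 to 1130 CPM in Erbb3f/f and at 797, 1052, 555 and 482 CPM in Erbb3d/d, and Hoxa11 at 679 to 792 CPM in Erbb3f/f and at 534, 789, 364 and 303 CPM in Erbb3d/d. Other stromal markers went the other way: 3 of the 12 were fitted higher in Erbb3d/d (Dcn, Lum and Esr1). Dcn (log2 fold change 0.38) and Lum (0.26) each had 3 Erbb3d/d libraries above every control and 1 below every control. All of these markers were named after their values were seen. The part of the stromal markers in the Sfrp2 values, and in the ratios to antagonists below, was not tested.

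Sfrp1, at positions 23411502 to 23449632 of chromosome 8 (plus strand), had 53.7, 45.2, 74.9 and 50.7 CPM in Erbb3f/f against 71.1, 36.0, 37.6 and 66.1 CPM in Erbb3d/d. Sfrp1 had a log2 fold change of -0.09 (SE 0.25; edgeR adjusted p = 0.912). Erbb3d/d replicates 2 and 3 lay below every control and replicates 1 and 4 within the control range, and the sign of the difference turned in 4 of 16 alternative fits. Sfrp4, at positions 19623104 to 19632994 of chromosome 13 (plus strand), had 58.0, 27.9, 73.8 and 26.9 CPM in Erbb3f/f against 56.5, 25.1, 25.1 and 39.1 CPM in Erbb3d/d. The spread within the controls was nearly as wide as that over all libraries, and the log2 fold change was -0.36 (SE 0.39; edgeR adjusted p = 0.759). Sfrp2 shares exonic sequence with Gm26771, and Rspo3 with Gm48159, each on the other strand and not in the tables.

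The DKK genes differed in level far more than between genotypes. Dkk3, at positions 112116017 to 112159057 of chromosome 7 (minus strand), had 238, 206, 246 and 245 CPM in Erbb3f/f against 238, 239.8, 199 and 270.3 CPM in Erbb3d/d. These values average 234 ± 18.8 and 237 ± 29.3 CPM (SD, n = 4 per genotype), the closest pair of means among the tested members relative to their level. Its log2 fold change was 0.02 (SE 0.11; edgeR adjusted p = 0.963). Dkk2, at positions 132085292 to 132180304 of chromosome 3 (plus strand), had 29.6, 37.1, 39.6 and 47.9 CPM in Erbb3f/f. In Erbb3d/d it had 63.0, 27.4, 46.2 and 55.3 CPM. Replicate 2 was the lowest of all 8 libraries and replicate 1 the highest, and the log2 fold change was 0.32 (SE 0.24; edgeR adjusted p = 0.634). Dkk1, at positions 30545863 to 30549665 of chromosome 19 (minus strand), encodes the classical LRP-binding inhibitor. No read fell on it in 4 of 4 Erbb3f/f libraries, against 2, 4, 0 and 2 reads in Erbb3d/d. A count of 0 over the Erbb3f/f group allows up to 3 reads, or 0.0725 CPM, by counting error only, and 4 of the 8 reads came from Erbb3d/d replicate 2 alone, so no fold is given. The gene was too low for the fit across all genes, and an exact permutation test gave p = 0.143.

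Agonists were then set against antagonists within each library, on the scale of CPM per kb of merged exon, as a description with no test. Rspo1 and Rspo3 summed to 23.2, 21.9, 42.2 and 20.4 CPM per kb in Erbb3f/f and to 56.4, 29.6, 38.6 and 43.7 CPM per kb in Erbb3d/d. The 8 antagonists summed to 414, 371, 463 and 409 CPM per kb in Erbb3f/f and to 362, 493, 264 and 312 CPM per kb in Erbb3d/d. Agonist transcripts were thus a small part of the 10-gene sum everywhere, at 5.30%, 5.58%, 8.35% and 4.75% in Erbb3f/f and 13.5%, 5.67%, 12.8% and 12.3% in Erbb3d/d. Erbb3d/d replicates 1, 3 and 4 stood above all controls, and replicate 2 stood among them. The log2 ratio of agonists to antagonists averaged -4.01 ± 0.38 in Erbb3f/f against -3.09 ± 0.65 in Erbb3d/d (SD, n = 4 per genotype), a difference of 0.92. Sfrp2 alone made up 72.5% to 75.4% of the antagonist sum in Erbb3f/f and 54.7% to 78.8% in Erbb3d/d, and without it the difference was 0.53. The log2 ratios without Sfrp2 overlapped, at -2.46 to -1.55 in Erbb3f/f and -1.82 to -1.21 in Erbb3d/d. Dkk3, whose action on WNT is less clear, was then the most abundant antagonist.

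**Figure D3:**
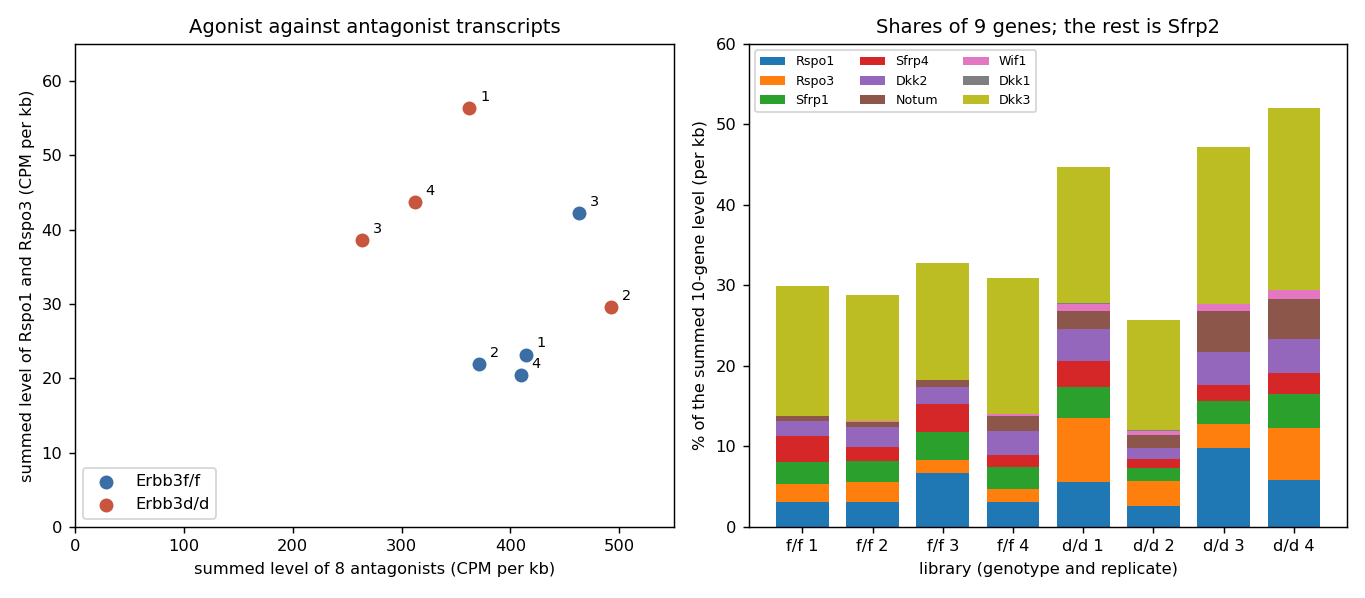
Left, summed level of Rspo1 and Rspo3 against that of the 8 antagonists, in CPM per kb, 1 point per library with its replicate number. Right, stacked bars of each gene's share of the 10-gene sum per library, with Sfrp2 as the part not drawn; the 2 lowest segments are the agonists, which reach 13.5%, 12.8% and 12.3% in Erbb3d/d replicates 1, 3 and 4 and 4.75% to 8.35% in Erbb3f/f.

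Of 12 pairs of an agonist with an antagonist that had reads in every library, 3 had log2 ratios that did not overlap between the genotypes, with Erbb3d/d above in each. They were Rspo3 over Sfrp1, Rspo3 over Sfrp2 and Rspo3 over Sfrp4, so all share Rspo3, whose own log2 fold change was 1.21, or 0.31 with the smooth muscle mean as a covariate. The share of 2.56% given above is of single genes, and none was computed for ratios of gene pairs. Rspo3 over Sfrp2 ran from -5.37 to -4.84 in Erbb3f/f and from -4.62 to -2.82 in Erbb3d/d, so that even Erbb3d/d replicate 2 lay above the controls. Rspo3 over Sfrp1 ran from -1.06 to -0.08 in Erbb3f/f and from 0.09 to 1.01 in Erbb3d/d. Against Notum the order was the opposite: the mean log2 ratio of Rspo1 over Notum was 2.12 ± 0.95 in Erbb3f/f against 0.82 ± 0.49 in Erbb3d/d (SD, n = 4 per genotype), with overlapping values.

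Other secreted modulators were nearly all too low to test. Only Frzb, an SFRP relative, passed the filter among 7 listed, with a log2 fold change of -0.29 (SE 0.25; edgeR adjusted p = 0.692). Rspo2, another R-spondin, was read 12, 6, 4 and 2 times in Erbb3f/f against 0 times in 4 of 4 Erbb3d/d libraries. It was named after its values were seen, and 12 of its 24 reads came from Erbb3f/f replicate 1. Rspo4 had 0 to 7 reads in Erbb3f/f and 0 to 23 reads in Erbb3d/d.

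The receptors and ligases through which R-spondins and DKKs act were read out next. Of 9 listed genes 8 were tested, and all 8 had a fitted log2 fold change above 0, with a median of 0.22 against -0.01 over all genes. Among all tested genes 7000 of 14598 were above 0, and Lrp5 (0.0013) and Lgr4 (0.0078) were close to 0. edgeR called none of them. At an unadjusted p under 0.05, 4 were higher, where 6.64% of all tested genes were, and 3 had Erbb3d/d wholly above, where 2.56% of all did. DESeq2 called 3 higher (Lgr5, Lgr6 and Rnf43), against 1.43% of all genes it tested. Lgr6 had 16, 9, 14 and 13 reads in Erbb3f/f and passed the filter on low counts only with Erbb3d/d, the group where it is high. Its place in these counts is thus no support for them. Without it Lgr5, Rnf43 and Znrf3 remain at the unadjusted p, and Lgr5 and Rnf43 in the other counts. Znrf3 was named after its values were seen. Lgr6, an R-spondin receptor, had 1.27 ± 0.29 CPM in Erbb3f/f against 3.97 ± 1.32 CPM in Erbb3d/d (SD, n = 4 per genotype), a log2 fold change of 1.65 (SE 0.38; edgeR adjusted p = 0.215, DESeq2 adjusted p = 0.00890). Lgr5, another R-spondin receptor and a marker of stem cells in several epithelia, had 2.63, 7.85, 6.60 and 13.3 CPM in Erbb3f/f against 16.8, 16.9, 29.5 and 22.1 CPM in Erbb3d/d. Rnf43, a ligase that R-spondins inhibit, had 27.7 ± 7.76 CPM in Erbb3f/f against 47.4 ± 9.83 CPM in Erbb3d/d (SD, n = 4 per genotype). Lgr5 and Rnf43 were named after their values were seen, with edgeR adjusted p = 0.281 for both and DESeq2 adjusted p = 0.0139 and 0.0426. Lgr4, likewise, had 49.4 ± 16.4 and 49.6 ± 5.63 CPM (SD, n = 4 per genotype). The epithelial marker sums given beside Notum were also higher in these Erbb3d/d libraries, and with their mean as a covariate the value of Lgr6 was 1.24 on the log2 scale (SE 0.54, edgeR adjusted p = 0.9998). With the smooth muscle mean it was 1.49 (SE 0.54, edgeR adjusted p = 0.490). The part of the markers in the values of Lgr5 and Rnf43 was not tested.

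Among 12 WNT feedback and target genes, all tested, 9 had a fitted log2 fold change above 0 and 3 below, with a median of 0.22. Neither edgeR nor DESeq2 called any of them. At an unadjusted p under 0.05, 5 were higher and 1 was lower, where 6.64% and 4.97% of all tested genes were. Of the 5, Ascl2 was low, at 0.779 to 2.26 CPM in Erbb3f/f and 1.77 to 4.91 CPM in Erbb3d/d. It passed the filter on low counts only with Erbb3d/d, the group where it is high, so it is no support for that count. Without it Axin2, Ccnd1, Sp5 and Tnfrsf19 remain. Apart from Axin2, these genes were named after their values were seen. Axin2, a general transcriptional target of beta-catenin, had 157, 144, 217 and 208 CPM in Erbb3f/f against 239.9, 253, 277 and 247 CPM in Erbb3d/d. Its genotypes did not overlap, and the log2 fold change was 0.48 (SE 0.13, edgeR adjusted p = 0.280, DESeq2 adjusted p = 0.0505). With the epithelial mean as a covariate it was 0.51 (SE 0.20, edgeR adjusted p = 0.9998). With the smooth muscle mean it was 0.78 (SE 0.15, edgeR adjusted p = 0.371). Myc, a growth regulator with many inputs besides WNT, had 293 ± 60.1 CPM in Erbb3f/f against 169.6 ± 55.4 CPM in Erbb3d/d (SD, n = 4 per genotype), a log2 fold change of -0.79 (SE 0.24; edgeR adjusted p = 0.311).

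**Figure D4:**
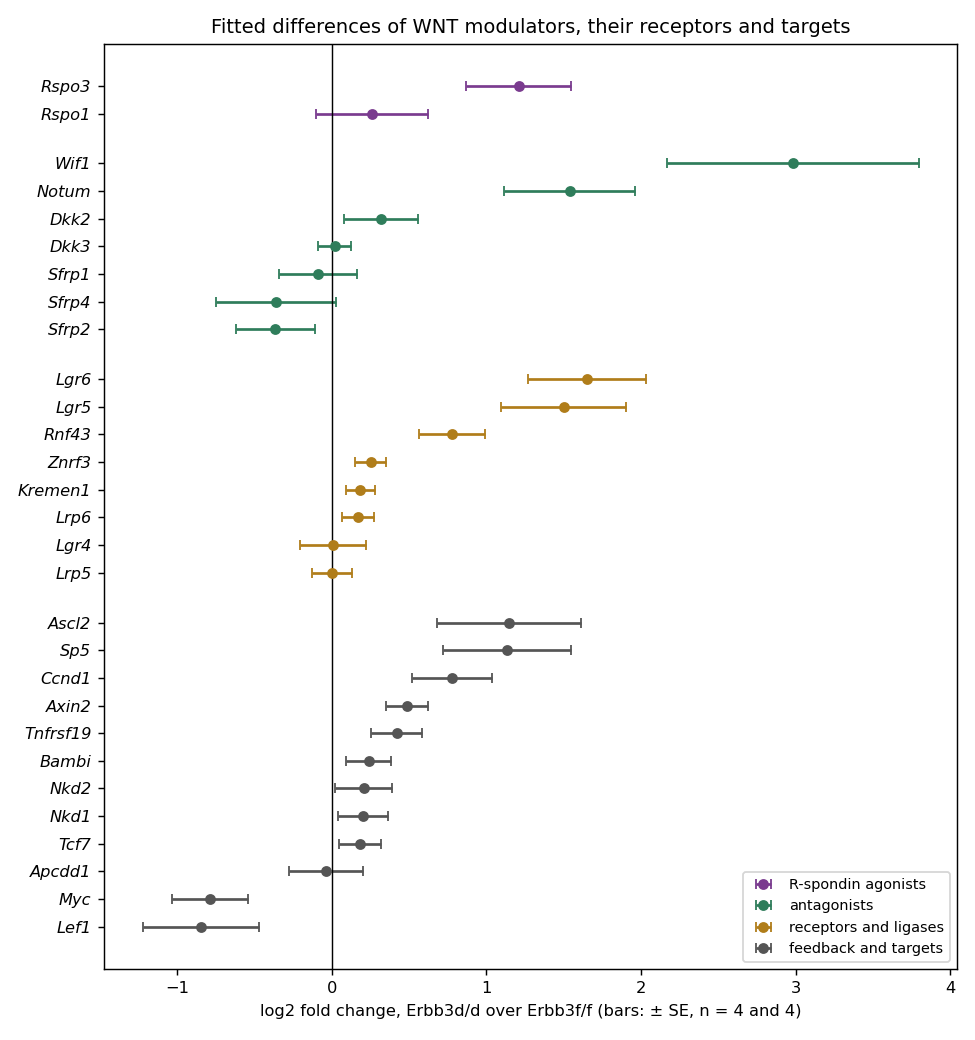
Fitted log2 fold change of Erbb3d/d over Erbb3f/f with its SE (horizontal axis) for the tested agonists, antagonists, R-spondin and DKK receptors and ligases, and WNT feedback and target genes. edgeR called none of the genes shown; Wif1 (2.98) is farthest to the right.

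Of the other WNT pathway genes edgeR called none. Among 14 WNT ligands and secretion genes 13 were tested, 6 fitted higher and 7 lower. Wnt7a, an epithelial WNT of the uterus, had 36.5 ± 23.9 CPM in Erbb3f/f against 167 ± 101 CPM in Erbb3d/d (SD, n = 4 per genotype), a log2 fold change of 2.20 (SE 0.56; edgeR adjusted p = 0.279, DESeq2 adjusted p = 0.0413), and 0.95 with the epithelial mean as a covariate. DESeq2 also called Wnt7b, named after its values were seen (adjusted p = 0.0299), while edgeR did not (adjusted p = 0.311). Wnt11 had 16.1 ± 2.98 and 12.8 ± 1.04 CPM (SD, n = 4 each; edgeR adjusted p = 0.481). Among 10 frizzleds 9 were tested, 6 higher and 3 lower. Fzd10 had 20.3 ± 9.99 and 58.8 ± 28.0 CPM (SD, n = 4 per genotype), at adjusted p = 0.284 (edgeR) and adjusted p = 0.00581 (DESeq2). With the epithelial mean as a covariate its log2 fold change moved from 1.54 to 0.60 (SE 0.49, edgeR adjusted p = 0.9998). With the smooth muscle mean the values were 2.27 (SE 0.55) for Fzd10 and 3.03 (SE 0.77) for Wnt7a, at edgeR adjusted p = 0.427 for both. Fzd2 had 414 ± 36.1 and 343 ± 95.0 CPM (edgeR adjusted p = 0.568). Of 6 glypicans, cell surface proteoglycans that bind WNTs, 5 were tested, 1 higher and 4 lower. Gpc3 had a log2 fold change of -0.64 (SE 0.19; edgeR adjusted p = 0.296) and Gpc4 one of 0.26 (adjusted p = 0.615). The 10 intracellular components were all tested, 7 higher and 3 lower. Of these Ctnnb1, which encodes beta-catenin, had a log2 fold change of 0.17 (SE 0.10; edgeR adjusted p = 0.545) and Dvl3 one of -0.08 (adjusted p = 0.854).

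**Figure D5:**
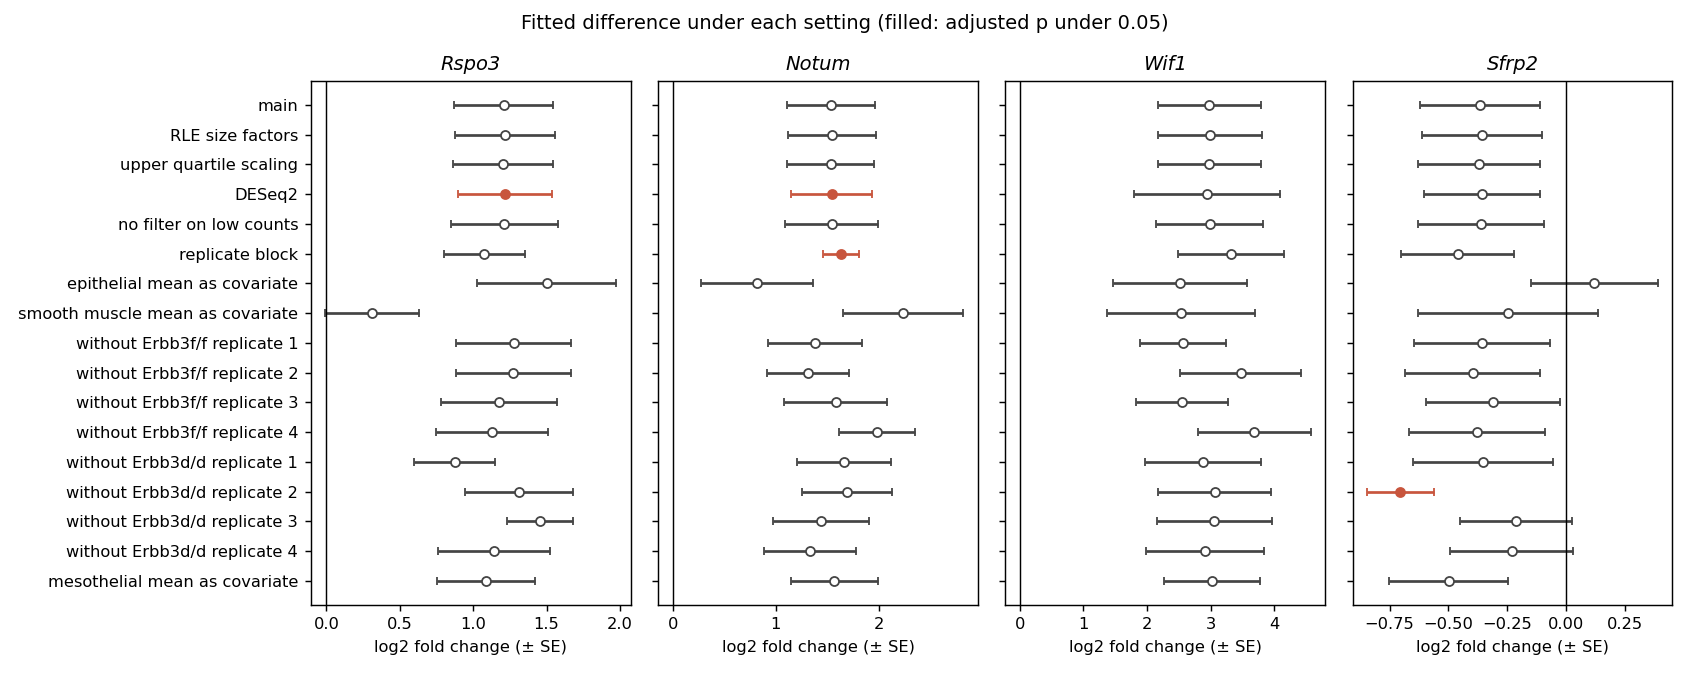
Log2 fold change with its SE (horizontal axes) of Rspo3, Notum, Wif1 and Sfrp2 in the fit with all 8 libraries and under 16 alternatives; filled red points have an adjusted p under 0.05. Rspo3, Notum and Wif1 stay above 0 in all 17 fits, Rspo3 is lowest, at 0.31, with the smooth muscle mean as a covariate, and Sfrp2 passes the threshold only without Erbb3d/d replicate 2.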

How the data were processed

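Polyadenylated RNA was sequenced as non-directional libraries, per the labels' protocols. The submitters' processing notes name HISAT2, SAMtools, HTSeq and StringTie with the builds mm10 and GRCm38. Their roles, the annotation and the counting options are not given in the sources used here. The authors deposited raw read counts for 23420 gene symbols per library, and 5 further lines that name no gene (70.9% to 73.0% of entries) were left out. The largest of these lines, for entries that matched no feature, held 48.3% to 50.8% of entries, and the line for entries not aligned 12.9% to 15.7%. The cause of the first was not tested. Genotype and replicate number were taken from the sample titles.

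The test was that of edgeR 4.0.16 under R 4.3.3 (filterByExpr, TMM, quasi-likelihood test with robust empirical Bayes, intercept and genotype) on 14598 genes, with Benjamini-Hochberg adjustment over all of them at 0.05. DESeq2 1.42.0 was the alternative tool. Log2 fold changes are Erbb3d/d over Erbb3f/f. Exact permutation tests were two-sided, over 70 assignments, on log2(CPM + 0.5). Merged exon lengths and positions came from GENCODE vM21 on GRCm38. Summed marker levels are in CPM. The fit was also run on counts simulated from the means and spread of these data, without differences in cell mixture. That run cannot show how well the fit suits these libraries.

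The members, lists and alternatives were chosen with earlier results of these data known. Named genes were Erbb3, all 10 members, in each WNT list the tested gene with the smallest p in each direction, and, for each member of at least 1 CPM, the 2 genes most like it in log2 CPM. All other genes given with a value or a call, such as Pdgfra, Vim, Rspo4 and Lrp5, were chosen after their values were seen. Other settings were RLE and upper quartile scaling, no filter, a replicate block, each library left out, and the mean log2 CPM of a marker list as a covariate.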

Additional observations from a re-analysis of the deposited data

Results flagged for a closer look

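Each member in each genotype, and the ratio of agonists to antagonists in each, was searched for a library lying apart, with a gap to its nearest neighbour beyond the 95% limit for 4 samples. This made 22 sets of 4 values, in which chance gives about 1 in 20, or 1.1 here, and 2 such libraries were found. The first was Erbb3f/f replicate 3 for Rspo1, at 65.8 CPM, with the next highest control at 25.9 CPM. The second was Erbb3d/d replicate 2 for the log2 ratio of agonists to antagonists, at -4.06, with the next lowest Erbb3d/d value at -2.84.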

How the results depend on the processing

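In edgeR's test with all libraries 0 genes and 0 members had an adjusted p under 0.05, and the same counts came from RLE scaling, upper quartile scaling, no filter, and the epithelial, smooth muscle and mesothelial means as covariates (the last added after seeing the data). DESeq2 called 261 genes and 2 members, Rspo3 and Notum. With the replicate number as a block, edgeR called 52 genes and 1 member, Notum (adjusted p = 0.0315), and also Wnt7a (0.0355) and Fzd10 (0.0101). The block lowered the SE of Notum from 0.42 to 0.18 and that of Fzd10 from 0.42 to 0.13. The labels do not say that the numbers pair the libraries, and they were not taken to. Deviations of same-numbered libraries correlated over genes at 0.22, 0.16, 0.096 and 0.15, all above 0 but 1 under the limit of 0.1 asked of every pair. Those of different numbers ran from -0.30 to 0.30 and were mostly below 0. Erbb3d/d replicates 2 and 3 correlated best with a library of another number (0.197 and 0.30). Whether the numbers pair the libraries is thus not settled. Leaving out 1 library gave 0 to 259 genes and 0 to 1 members, and only the fit without Erbb3d/d replicate 2 called any, Sfrp2 among them. Signs turned for Erbb3 (-7.29e-05), Sfrp1 (0.14), Sfrp2 (0.12), Sfrp4 (0.23) and Frzb (0.16) with the epithelial covariate and for Dvl3 (0.12) with the smooth muscle covariate. Leaving out 1 library moved Sfrp1 between -0.27 and 0.080 and Dkk3 between -0.048 and 0.097. The cause was not tested. Over 16 alternatives each, the log2 fold change ran from 0.31 to 1.501 for Rspo3, 0.82 to 2.24 for Notum and 2.52 to 3.68 for Wif1, with adjusted p from 0.0139, 0.0115 and 0.114 up to 0.9998. For Rspo3 the low end came from the smooth muscle covariate and the high end from the epithelial one, and for Notum the reverse. The difference in the log2 ratio of agonists to antagonists ran from 0.53 to 1.24 over 10 alternatives. The number of members with an exact permutation p under 0.05 was 2 with pseudocounts of 0.1, 0.5 and 1. These are Notum and Wif1, the members whose genotypes do not overlap, so the count repeats that one, beside 5.04% of all tested genes. Wif1 is no support for it, as said above. Few reads limit Wif1 and Dkk1.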

Other observations

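The genes whose log2 CPM followed each member most closely over the 8 libraries are given as likeness only, from 14517 genes with a mean of at least 1 CPM, with no test. Rspo3 was followed by Prune2 (Pearson r 0.97) and Nexn (0.97), with means of 84.8 and 11.2 CPM in Erbb3f/f and 157 and 21.3 CPM in Erbb3d/d. Wif1 was followed by Lepr (0.96), with 16.2 and 37.8 CPM, and Ndc80 (0.96), with 1.48 and 2.83 CPM. Notum was followed by Ghdc (0.99) and Gm14137 (0.98), and Rspo1 by Cd22 (0.98) and Pld3 (0.98). Sfrp2 was followed by Hectd2 (0.98), with 29.5 and 22.5 CPM, and Pkdcc (0.97), with 680.2 and 405 CPM. For Dkk2 the nearest genes were Kirrel (0.99) and Mob2 (0.96), for Dkk3 1700020D05Rik (0.95) and Pisd-ps3 (0.95), for Sfrp1 Rabl2 (0.93) and Cfp (0.91), and for Sfrp4 Pcdh9 (0.95) and Plcd1 (0.95). All of these genes share the libraries, and so the same cell mixture and depth, with the member they follow.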
